A study of Mus musculus with 4 samples.

Results

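Far intergenic shared regions are short stretches of open chromatin that lie well away from every protein-coding gene and were found in all 4 libraries of the study. Peaks that overlapped by 1 bp or more on chromosomes 1 to 19 and X were merged, and a merged region was kept when it was under 1000 bp wide, overlapped a peak of all 4 libraries and lay more than 20 kb from every protein-coding gene body of the RefSeq table (GRCm38). This left 13594 of 171490 merged regions, or 17.3% of the 78650 regions called in all 4 libraries. Among the other narrow regions called in all 4, 48880 overlapped a protein-coding gene and 15613 lay outside genes within 20 kb of one. The peak calls and their widths chose the regions, so their number and their presence in all 4 libraries are given as a description.

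Accessibility was measured by Omni-ATAC-seq, which uses the Tn5 transposase to insert sequencing adapters into accessible DNA. The cells were immature γδ thymocytes on the path to IL-17 production (Tγδ17), sorted as CD4- CD8- TCRγδ+ CD3e+ CD24+ CD45RBlo, with 15000 to 17000 cells in each library. They came from pooled fetal thymi of embryonic day 17 to 18, of mice backcrossed to C57Bl/6 for 5 generations. There were 2 libraries from Maf+/+ fetuses with Il7r-Cre (WT 1 and WT 2) and 2 from Maf fl/fl fetuses with Il7r-Cre (KO 1 and KO 2), so both genotypes carried the Cre recombinase, which is driven from the Il7r gene of lymphoid cells. Whether replicates came from different litters is not stated, and differences between libraries of a genotype may therefore be technical. Deletion of Maf itself was not checked here, since the lists hold peaks only.

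The libraries held 102718 peaks (WT 1), 132179 (WT 2), 130935 (KO 1) and 120141 (KO 2). The background pileup implied by the deposited fold enrichments and p-values was 1.57 in WT 1, 1.38 in WT 2, 0.878 in KO 1 and 0.759 in KO 2. It is inferred under a Poisson model that matched 27.1% to 31.8% of a library's peaks at that value, and read depth was not used here to check it. It separated the genotypes without overlap and cannot be told apart from genotype. All 10 T cell marker genes, Cd3e, Lck and Bcl11b among them, were open within 1 kb of an end of the gene in every library. Of the markers of other cell types, 3 to 4 of 5 B cell genes (not Pax5), 2 of 6 myeloid genes (not Csf1r, Lyz2, Mpo or Csf3r), 1 to 2 of 4 erythroid genes (not Gata1 or Alas2) and 3 to 4 of 7 stromal and epithelial genes (not Krt5, Col1a2 or Pdgfra) were open there. In bulk libraries, a region open in fewer cells and a region less open in each cell cannot be told apart.

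Gene deserts are long stretches without protein-coding genes, and those beside developmental regulators often hold enhancers, which are sequences that act on a gene from a distance. Enhancers are usually nucleosome-poor and are cut by Tn5, but an open region can also be a promoter of a non-coding RNA, an insulator or a repeat. In T cells the best-known distant elements serve genes such as Bcl11b, Gata3, Myc and the antigen receptor loci, where open chromatin accompanies recombination of V, D and J segments.

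Sequences are shown first for far regions that meet a promoter window around the start of a long non-coding RNA. In such windows the letters of an open region are known. Each line is 250 bases before to 50 after a RefSeq start on the gene's own strand (GRCm38.p6), with the bases that lie inside the shared region in capitals. Gm33195 starts in the gap between Cd83 and Jarid2 (chr13:43864168-43864467, plus strand). Gm4258 starts in the gap between Nr5a2 and Ptprc (chr1:137898214-137898513, plus strand). Gm33728 starts between Myb and Hbs1l (chr10:21252193-21252492, minus strand), and 2310001H17Rik between Clec2d and Cd69 (chr6:129237996-129238295, minus strand).
Gm33195: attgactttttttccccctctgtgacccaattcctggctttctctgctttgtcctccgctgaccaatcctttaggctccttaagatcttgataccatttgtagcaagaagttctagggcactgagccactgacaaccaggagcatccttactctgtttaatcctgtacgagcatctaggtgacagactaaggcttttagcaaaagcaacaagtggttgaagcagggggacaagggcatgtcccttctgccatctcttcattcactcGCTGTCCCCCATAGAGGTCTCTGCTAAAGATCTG
Gm4258: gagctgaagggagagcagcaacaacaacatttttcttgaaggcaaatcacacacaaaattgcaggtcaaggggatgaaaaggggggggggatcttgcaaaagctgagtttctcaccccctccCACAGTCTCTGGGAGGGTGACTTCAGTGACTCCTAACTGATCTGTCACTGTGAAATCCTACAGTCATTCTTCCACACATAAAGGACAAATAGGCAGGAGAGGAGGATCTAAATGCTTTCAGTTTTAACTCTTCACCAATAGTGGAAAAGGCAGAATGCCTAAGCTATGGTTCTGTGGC
Gm33728: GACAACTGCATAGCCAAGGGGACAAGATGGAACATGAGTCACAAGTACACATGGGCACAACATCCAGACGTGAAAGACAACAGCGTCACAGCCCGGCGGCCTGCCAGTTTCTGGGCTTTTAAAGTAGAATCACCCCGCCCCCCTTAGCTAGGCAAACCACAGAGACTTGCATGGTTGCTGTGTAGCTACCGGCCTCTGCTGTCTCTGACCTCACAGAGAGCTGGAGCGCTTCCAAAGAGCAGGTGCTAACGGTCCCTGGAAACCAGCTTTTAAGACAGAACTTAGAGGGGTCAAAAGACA
2310001H17Rik: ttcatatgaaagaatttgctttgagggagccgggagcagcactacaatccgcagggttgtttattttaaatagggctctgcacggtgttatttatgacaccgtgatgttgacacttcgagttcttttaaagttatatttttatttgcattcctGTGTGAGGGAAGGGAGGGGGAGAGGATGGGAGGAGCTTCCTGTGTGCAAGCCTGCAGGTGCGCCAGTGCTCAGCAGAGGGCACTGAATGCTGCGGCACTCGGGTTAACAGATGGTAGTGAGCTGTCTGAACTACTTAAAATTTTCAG
The whole Gm33728 window was open, and it holds 1 match to the RUNX letters TGTGGTT and 1 to the AP-1 letters TGANTCA, counted on both strands. The other windows shown have no match to any of the 7 motifs searched. In Gm33195 only the last 34 bases of the window were open, all of them after the start. In Gm4258 the last 178 were open and in 2310001H17Rik the last 147.

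The second set of sequences is mature microRNAs whose hairpins lie far from protein-coding genes with a shared region within 10 kb. MicroRNAs pair with target transcripts mainly through their seed, bases 2 to 8, which is in capitals here, and the lines are grouped by shared seed. The hairpins of miR-17 and miR-20a belong to the Mir17 to Mir92-1 cluster (chromosome 14, between Slitrk5 and Gpc5), and those of miR-106a and miR-20b to its relative on the X chromosome (between Gpc3 and Ccdc160).
miR-17-5p: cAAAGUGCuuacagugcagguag
miR-20a-5p: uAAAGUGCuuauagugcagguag
miR-106a-5p: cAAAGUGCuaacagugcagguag
miR-20b-5p: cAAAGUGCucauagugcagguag
miR-92a-3p: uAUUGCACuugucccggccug
miR-363-3p: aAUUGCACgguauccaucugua
miR-181a-5p: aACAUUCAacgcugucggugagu
miR-181b-5p: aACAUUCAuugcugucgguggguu
miR-146a-5p: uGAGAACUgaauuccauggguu
The sequences of miR-92a and miR-363 again pair the cluster on chromosome 14 with that on X, and miR-181a and miR-181b share another seed. The miR-146a seed stands alone among these.

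The far regions were narrow and spread through gaps of every length. Their median width was 263 bp (interquartile range 199 to 361), against 243 bp for narrow shared regions outside genes within 20 kb and 287 bp for those overlapping genes. The summits of the 4 libraries within a far region lay a median of 44 bp apart, against 40 bp in the nearer narrow regions. The median distance from a gene was 57.6 kb, 4235 regions (31.2%) lay more than 100 kb away, 451 lay more than 500 kb away, and the farthest lay 2138 kb away. The nearest to the 20 kb limit were 20002, 20004 and 20004 bp from a gene, while shared regions at 20000, 20000 and 19999 bp fell just outside. The widest inside were 996 and 981 bp, and far regions of 1000 and 1003 bp fell just outside, 2 of the 34 that width excluded.

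Density was lower farther from genes. There were 2.55 far regions per 100 kb at 20 to 50 kb from the nearest gene, 1.66 at 50 to 100 kb, 1.04 at 100 to 200 kb, 0.515 at 200 to 500 kb and 0.210 beyond 500 kb. Of 5761 gaps between neighbouring genes that are longer than 40 kb, 2812 held at least 1 region. The share of gaps with a region went from 35.4% of those of 40 to 100 kb to 83.1% of those over 2000 kb, while the density went the other way, from 3.52 to 0.224 per 100 kb of eligible length (the gap less 20 kb at each gene). Over all gaps it was 1.18 per 100 kb. The X chromosome had 0.310 regions per 100 kb, and the autosomes had 0.920 (chromosome 4) to 1.80 (chromosome 17).

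**Figure D1:**
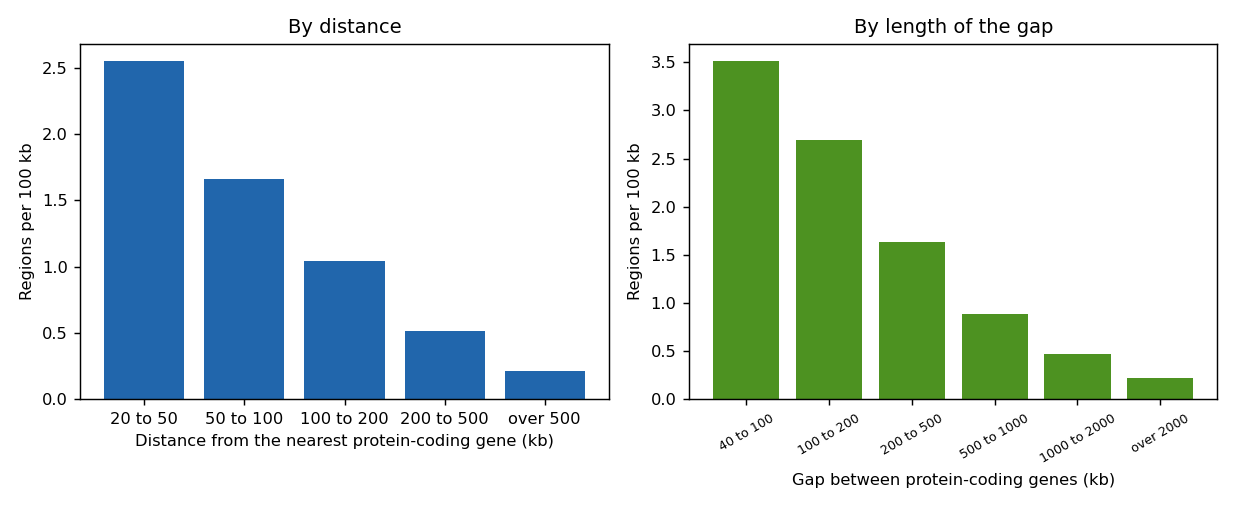
Far intergenic shared regions per 100 kb of eligible length (vertical axes), by distance from the nearest protein-coding gene in kb (left) and by the length in kb of the gap between neighbouring genes (right). Each bar pools all gaps: density goes from 2.55 to 0.210 with distance and from 3.52 to 0.224 with gap length.

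The regions were unevenly shared among deserts, here gaps of at least 500 kb. The 639 deserts held 3849 regions (28.3%) with a median of 2 each: 192 deserts held none, 49 held at least 20, and the 15 fullest held 1010. Of these 15, 5 were flanked by a gene of the list of T cell regulators, and a further 1 by Sox4, a gene of the type 17 list. The share of all 639 deserts flanked by a listed gene is not given here, so these flanks are not read as an excess. The deserts were ranked by the same counts, so these numbers describe them and test nothing.

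**Figure D2:**
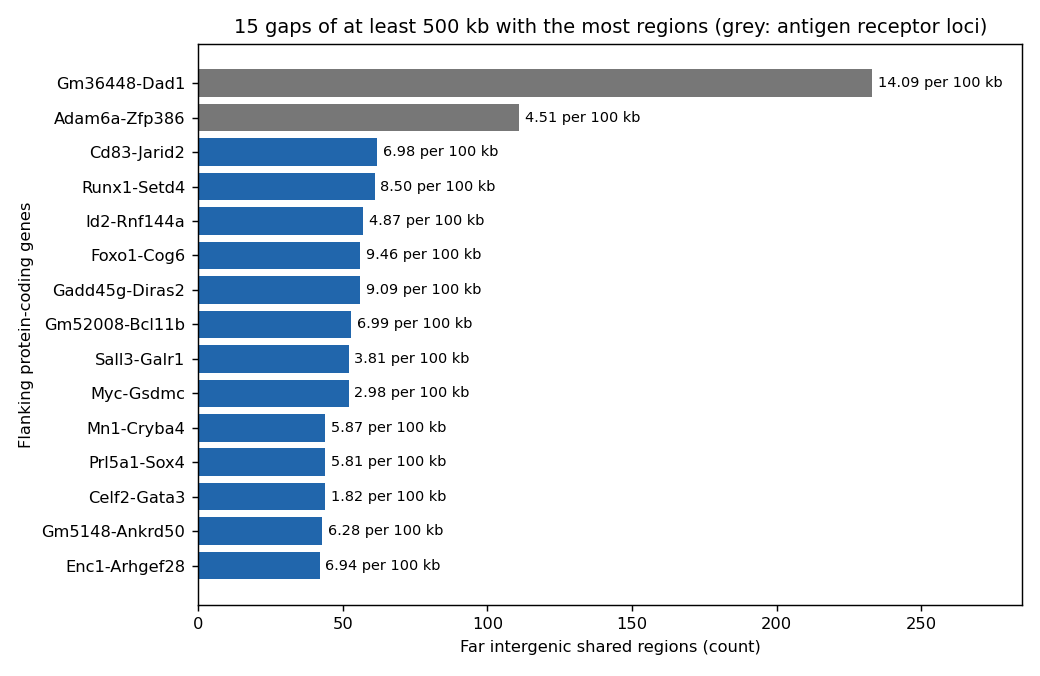
Number of far intergenic shared regions (horizontal axis, count) in the 15 gaps of at least 500 kb with the most, named by their flanking protein-coding genes, with the density per 100 kb printed beside each bar. Grey bars are the antigen receptor loci: the bar of the T cell receptor alpha and delta locus reaches 233, and the other 14 range from 42 to 111.

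The fullest desert was the gap from Gm36448 to Dad1 (chr14:52541357-54235484), which holds the T cell receptor alpha and delta genes, whose segments are not counted as protein-coding genes in the table. It held 233 regions, 14.1 per 100 kb, and 93 of them overlapped a receptor segment. Their median height percentile was 61.2 (WT 1), 59.9 (WT 2), 62.2 (KO 1) and 61.2 (KO 2). This percentile is the rank of a region's tallest peak by −log10 q among the 78650 regions shared by all 4 libraries, so each library is on the same scale from 0 to 100. Both KO percentiles were below both WT percentiles in 30 of the 233 (12.9%) and above them in 69 (29.6%), against 20.6% and 21.1% of all shared regions. The V stretch before Trdd1 held 215 of the regions, 27 with KO below and 68 with KO above. The stretch from Trdd1 to Trdv5, which holds the delta D, J and C segments, held 9. In those 9, KO was below WT in 2 and above in 0, too few to read against that background. The region at chr14:54138123-54138581 stood at 62.2 and 67.1 in WT against 52.6 and 48.7 in KO. The stretch from the alpha J segments to Trac held 8.

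**Figure D3:**
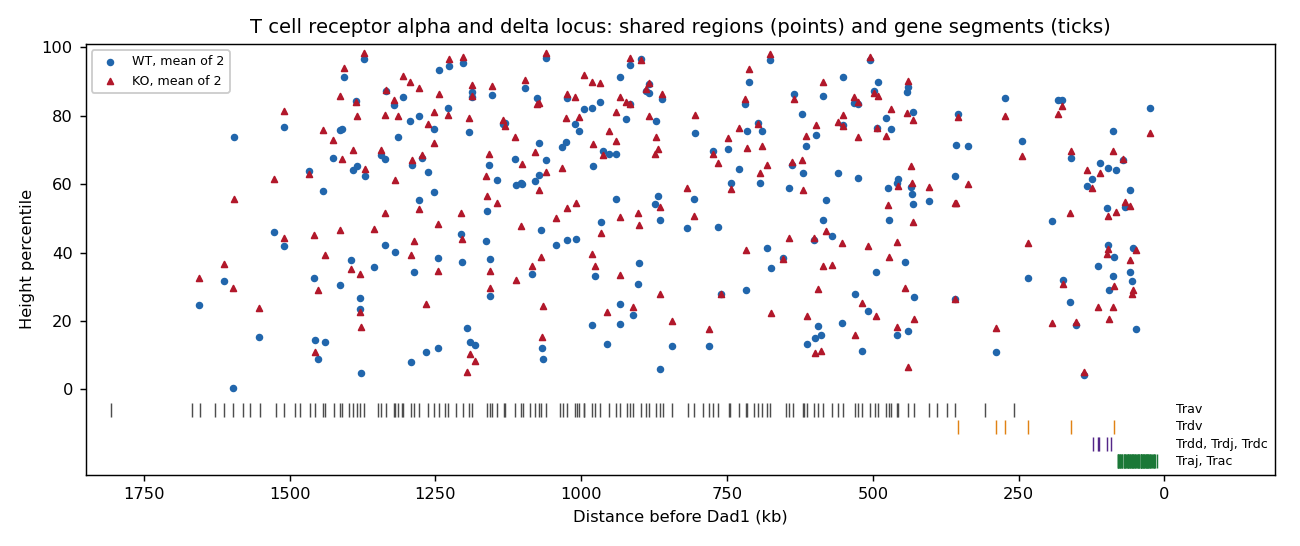
Height percentile (vertical axis, 0 to 100) of each far shared region of the T cell receptor alpha and delta locus against its distance in kb before Dad1 (horizontal axis, descending), as the mean of 2 WT libraries (circles) and 2 KO libraries (triangles), with ticks for the gene segments below. The points fill the stretch of V segments, which holds 215 of the 233 regions, at all heights.

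The other receptor loci differed in their number of far regions. The T cell receptor gamma locus (chr13:19178042-19352343), which makes the other chain of the γδ receptor, held 27 far regions, 15.5 per 100 kb of its span, and 7 lay on a segment. Its regions ran from very low to very high. The region at the start of Trgv7 (chr13:19177716-19178106) stood at percentiles 96.7 and 96.5 in WT and 95.6 and 95.0 in KO. The region at Trgv2 (chr13:19336880-19337318) stood at 94.9 and 94.8 in WT and 94.8 and 95.0 in KO, so the V genes at the 2 ends were about equally tall. A region between segments at chr13:19272532-19273372 stood at 91.4 and 87.4 in WT and at 93.3 and 95.3 in KO, and one at chr13:19219218-19220027 at 93.5 and 92.4 in WT and 94.9 and 95.4 in KO. In both, each KO library was above each WT library, by a few points.

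The T cell receptor beta locus held 36 far regions, 17 of them on a segment. The immunoglobulin heavy chain locus, rearranged for antibody in B cells, held 114, of which 67 lay on a segment, with medians of 58.5 and 63.0 in WT and 66.1 and 65.7 in KO. Of these, 110 lay in the gap from Adam6a to Zfp386 (chr12:113546415-116047713), the desert with the next most regions (111 in all). By contrast, the immunoglobulin kappa locus held 16 regions with 0 on a segment, and the lambda locus held 0 far regions. Of 5 B cell marker genes, 3 were open at an end in WT 1 and KO 1 and 4 in WT 2 and KO 2, and Pax5 was open in none. The part of B cells in the heavy chain result was not tested. All receptor loci together held 426 far regions, 3.13% of the total.

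The gaps beside T cell regulators held a small share of all far regions but were seldom empty. Of the 41 listed regulators, 36 flanked a gap over 40 kb. These 53 gaps held 779 regions, 90.6% of them held at least 1, and the median was 8 regions, against 48.8% and a median of 0 over all 5761 gaps. Pooled density was 4.05 per 100 kb, against 1.18 over all gaps, 5.11 for the MAF and AP-1 list and 7.41 for the myeloid list given further on, so a density above that of all gaps was not particular to T cell regulators. The median length of the 53 gaps was 160 kb, against 94.9 kb over all gaps. Of all gaps of 100 to 200 kb, 58.8% held a region, at 2.69 per 100 kb. The part of gap length in these values was not tested. The list was written with results of these data known, and no test of the list was run.

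The tallest region of a gap was not always the one nearest its regulator. Runx1, a transcription factor of blood stem cells and T cells, was followed by a gap to Setd4 (chr16:92826075-93583456) with 61 regions at 8.50 per 100 kb, 39 of them nearer Runx1. The tallest, at chr16:93152782-93153542 and 326.7 kb from Runx1, stood at 93.5 (WT 1), 93.8 (WT 2), 92.7 (KO 1) and 95.4 (KO 2). Only a few points separate those libraries, and the genotypes overlap. Its relative Runx3 had 17 regions in the gap to Syf2, with medians of 69.3, 69.9, 67.0 and 69.5 in the same order.

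Bcl11b, which holds cells in the T lineage, was flanked by a gap to Gm52008 (chr12:107112137-107910402) with 53 regions. The region with the highest lowest-library percentile (chr12:107159792-107160605) lay at the far end, 749.8 kb from Bcl11b, and stood at 94.8, 94.9, 95.6 and 97.2 in WT 1, WT 2, KO 1 and KO 2. Gata3, required for early T cells, lay at the end of a 2461 kb gap from Celf2 (chr2:7396342-9857077) with 44 regions. All 44 were nearer Gata3, and the first lay 1243 kb from Celf2, so the stretch beside Celf2 held none. The tallest, 262.6 kb from Gata3 (chr2:9593811-9594445), stood at 97.6 and 96.3 in WT and 94.9 and 95.8 in KO.

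Lef1 and Tcf7 encode related factors that act with β-catenin. The gap from Rpl34 to Lef1 held 42 regions, 12.4 per 100 kb, and that from Tcf7 to Vdac1 held 8 at 21.4 per 100 kb. Satb1, a chromatin organiser of thymocytes, had 39 regions in the gap to Kcnh8, Tox had 34 in the gap to Car8, and Bcl6 had 27 in the gap to Lpp. The gap after Ets1 (to Kirrel3) held 19 regions, all nearer Ets1. Ptprc, which encodes CD45, had 35 regions in the gap from Nr5a2, among them the Gm4258 promoter printed above, at percentiles 98.1, 98.1, 97.3 and 98.0 in WT 1, WT 2, KO 1 and KO 2. Id2 and Id3, inhibitors of E proteins, had 57 regions (to Rnf144a, 45 nearer Id2) and 10 regions (to Rpl11). Foxo1 had 56 regions in the gap to Cog6. There both KO percentiles were below both WT in 21 (37.5%) and above in 10 (17.9%), against 20.6% and 21.1% of all shared regions. Other gaps named here leaned either way. From Rpl34 to Lef1, KO was below WT in 40.5% and above in 23.8%. From Tox to Car8 these shares were 17.6% and 32.4%.

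**Figure D4:**
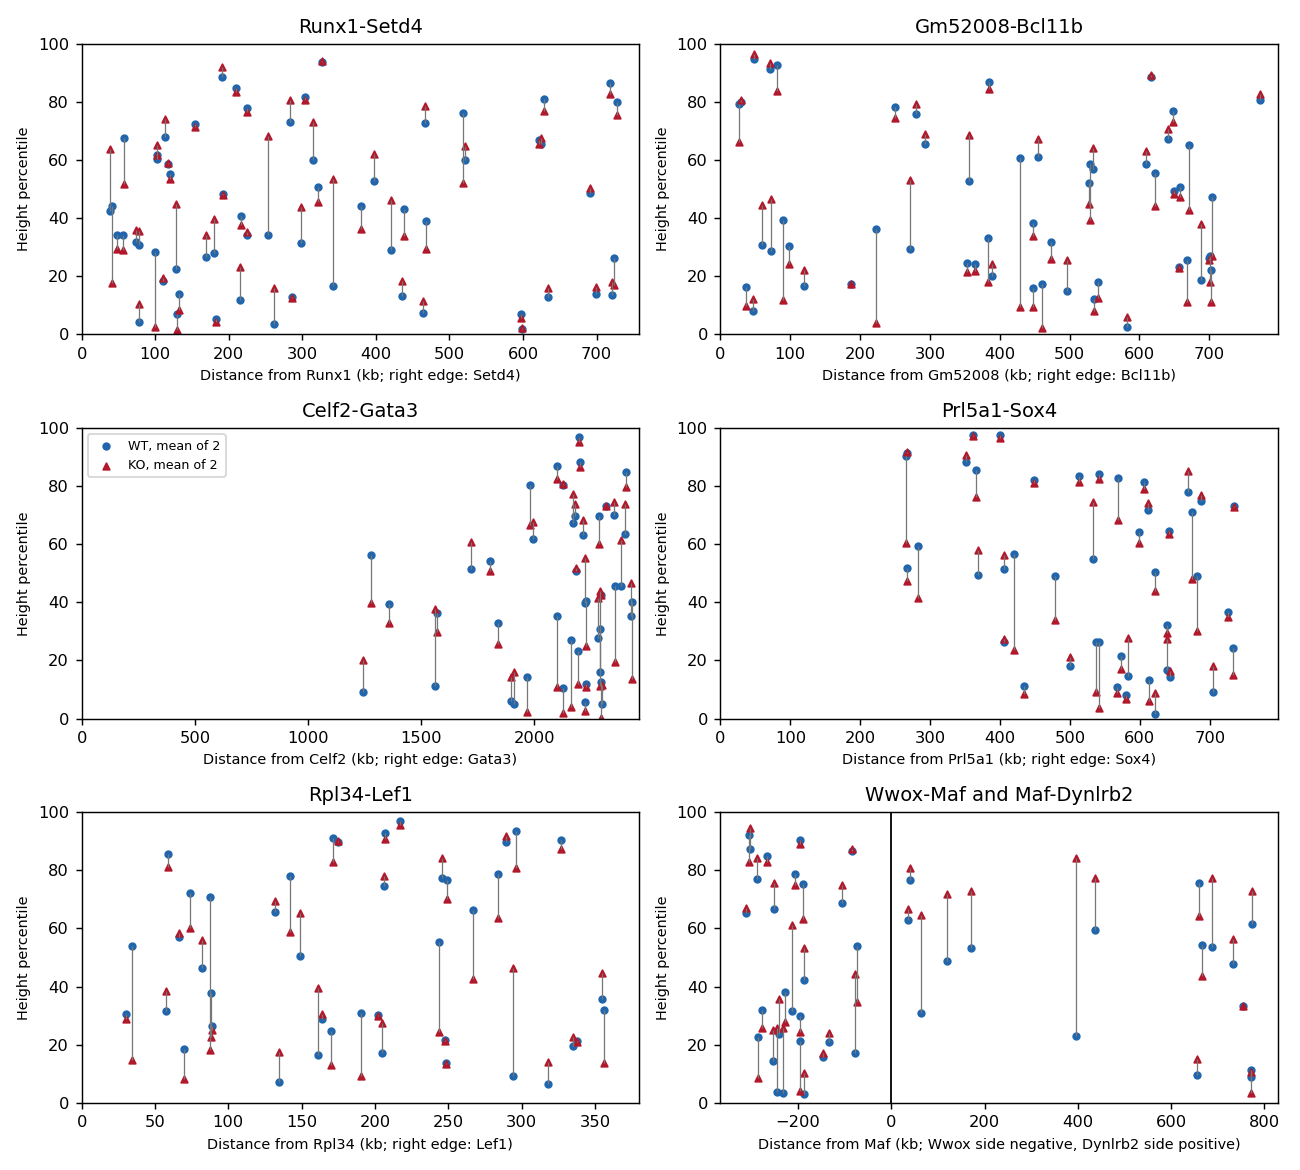
Height percentile (vertical axes, 0 to 100) of each far shared region in 7 gaps beside T cell and type 17 regulators, against distance in kb from the left gene (horizontal axes), or from Maf in the last panel. Circles are the mean of 2 WT libraries, triangles the mean of 2 KO libraries, and grey lines join the same region. The regions between Celf2 and Gata3 lie on the Gata3 side, and the 16 regions between Maf and Dynlrb2 include one at 395.6 kb where KO is far above WT.

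Several of the fullest deserts had no listed regulator at either side. The gap from Cd83 to Jarid2 (chr13:43803134-44730773) held 62 regions. Its tallest met the end of the Gm33195 window printed above. It stood at 99.4, 99.5, 99.3 and 99.2 in WT 1, WT 2, KO 1 and KO 2. It was thus among the highest 1% of shared regions in every library. Cd83 encodes a surface protein of dendritic cells and thymic cells, and Jarid2 a partner of Polycomb complexes. Gadd45g, a stress response gene, was followed by 56 regions in the gap to Diras2, 40 of them nearer Gadd45g, with KO below WT in 19 (33.9%) and above in 9 (16.1%), against the same 20.6% and 21.1%. Myc, which drives growth, was followed by 52 regions in the gap to Gsdmc (chr15:61990362-63775970). The tallest there, 762.3 kb from Myc (chr15:62752665-62753102), stood at 96.9 and 97.4 in WT and 91.4 and 92.2 in KO.

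The gaps beside Maf, the gene deleted in the KO cells, held 43 far regions between them, with 27 from Wwox to Maf (chr8:115352713-115703252) and 16 from Maf to Dynlrb2 (chr8:115706895-116505014). On the Wwox side the median percentiles were 43.8 and 40.3 in WT and 46.5 and 42.1 in KO, so the genotypes' medians overlapped. KO was above WT in 10 of these 27 regions (37.0%) and below in 5 (18.5%), against 21.1% and 20.6% of all shared regions. On the Dynlrb2 side the medians were 47.9 and 50.1 in WT and 67.2 and 67.9 in KO, without overlap. There, KO was above WT in 7 of the 16 regions and below in 2, against 21.1% and 20.6% of all shared regions. The region at chr8:116102467-116102761, 395.6 kb from Maf, had the widest KO-above-WT gap of all far regions, with percentiles of 5.40 and 40.8 in WT and 87.1 and 81.6 in KO. Its −log10 q was 2.91, 21.0, 73.9 and 67.3 in WT 1, WT 2, KO 1 and KO 2. It was picked as the extreme of its kind and has no test.

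The type 17 list (22 genes, 21 in the gene table) flanked 23 gaps, of which 60.9% held a region, with a median of 3 and 178 in all. Its gaps were shorter than those of the T cell regulators (median 113 against 160 kb), and the pooled density was close, at 3.92 against 4.05 per 100 kb. Sox4, an HMG factor of γδ17 cells, accounted for 44 of them in the gap from Prl5a1 (chr13:28151596-28948918), with 36 nearer Sox4 and 42 on a long non-coding RNA. Its medians were 57.1 and 56.6 in WT and 45.3 and 47.8 in KO. KO was below WT in 13 of the 44 (29.5%) and above in 7 (15.9%), against 20.6% and 21.1% of all shared regions, and the genotypes' medians did not overlap. Sox5 had 20 regions in the gap from Etnk1 and 13 in the gap to Bcat1, Sox13 had 13 in the gap to Snrpe, and Ahr had 21 in the gap to Agr3. In contrast, the gaps of Il17a, Il17f, Il23r, Il7r, Zbtb16 and Blk held 0 far regions shared by all 4 libraries. Far narrow regions called in at least 2 libraries numbered 3 beside Il17a, 2 each beside Il7r and Zbtb16 and 1 beside Il23r. Il17f and Blk had 0 of these. Of the 3 beside Il17a, 2 were called in both WT libraries and no KO library. Such calls made up 2.88% of far narrow regions called in at least 2 libraries. The 3 regions are too few to read against that share. Regions within 20 kb of these genes or inside them were outside the rule and are not described here.

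The list of MAF and AP-1 factors flanked 12 gaps with 120 regions and a median of 8.5, and 91.7% of the gaps held one. Jun was followed by 23 regions in the gap to Fggy, Fos lay between gaps with 10 (to Jdp2) and 7 (from Tmed10), and Bach2 had 15 in the gap from Map3k7. Lists for other cell types also had distant regions. The myeloid list flanked 7 gaps, of which 85.7% held a region, with 62 regions, a median of 3 and 7.41 per 100 kb. Of these 62, 32 lay beside Irf8 and 24 beside Cebpb, factors that are also expressed outside myeloid cells. The stromal list flanked 10 gaps with 50 regions and a median of 1.5 (1.92 per 100 kb), and the B cell list 4 gaps with 7 (0.743 per 100 kb). The developmental list, whose genes are active mostly outside blood, flanked 30 gaps with 90 regions and a median of 1. Its pooled density was 0.447 per 100 kb, below the 1.18 of all gaps. Its gaps were long, with a median of 562 kb, and all gaps of 500 to 1000 kb held 0.889 per 100 kb. Gaps of the myeloid list were short, with a median of 64.2 kb, and all gaps of 40 to 100 kb held 3.52 per 100 kb. The part of gap length in the densities of the lists was not tested.

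The densest gaps were short and held arrays of small RNA genes in 2 cases. Among gaps with at least 5 regions, that from Gas8 to Rhou (chr8:123536658-123653928) came first, with 28 regions at 36.2 per 100 kb, 21 of them on a ribosomal RNA gene. It holds 48 such genes in the table. Its medians were 13.7 and 20.8 in WT and 35.3 and 18.8 in KO, low in all libraries. The gap from BC107364 to Hjv held 10 regions, 6 on a tRNA gene, at 32.5 per 100 kb. Repeated genes like these are near-identical, so reads may be assigned to the wrong copy and the counts are uncertain. The longest gaps without a far region were Stim2 to Pcdh7 (3595 kb), D3Ertd751e to Pcdh10 (3575 kb) and Cdh6 to Cdh9 (3552 kb), all beside cadherin family genes.

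Most far regions, 9718 (71.5%), overlapped no row of the gene table, and 3180 (23.4%) overlapped a long non-coding RNA. A promoter window of 324 of 4102 far lncRNA genes (7.90%) met a far region, which involved 320 regions (2.35%). These were taller than the rest: their median percentile was 64.3, 63.0, 62.1 and 60.3 in WT 1, WT 2, KO 1 and KO 2, and the median of their lowest value over the 4 libraries was 54.2, against 29.9 for far regions at no promoter. Windows with a far region held the ETS letters AGGAAGT in 18.0%, against 10.1% of far windows without one and 9.38% of all promoters in the table. The RUNX letters TGTGGTT were in 15.2%, against 5.98% and 5.29%. The TCF1 and LEF1 letters CTTTGAA were in 7.76%, 7.05% and 5.14%, the GATA letters AGATAAG in 4.16%, 4.34% and 3.04%, and the AP-1 letters TGANTCA in 11.1%, 11.2% and 7.85%. The MAF half-site letters TGCTGAC were in 5.26%, 5.03% and 4.71%, and the E box letters CAGCTG in 19.4%, 17.3% and 16.4%. Only the ETS and RUNX shares stood more than 5 points above the windows without a region. The GC content differed too, with medians of 50.7% in windows with a far region, 46.0% without and 53.0% over all promoters, and its part in these shares was not tested. A match of letters is a description and no binding was measured.

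Of 1005 microRNA hairpins, 216 lay far from protein-coding genes and 82 of these (38.0%) had a far region within 10 kb. The Mir17 to Mir92-1 cluster, which promotes survival and division of lymphocytes, had 2, at chr14:115040577-115041074 (88.8, 77.7, 76.8 and 76.3 in WT 1, WT 2, KO 1 and KO 2) and chr14:115041836-115042361 (76.8, 77.2, 78.1 and 78.1). The genotypes differed by little in the latter, and WT 1 stood apart in the former. The X-linked relative had 4. The one with the highest lowest-library percentile, at chrX:52745519-52745911, stood at 52.4 and 47.5 in WT and 39.9 and 39.8 in KO. Mir181a-1 and Mir181b-1, known for tuning T cell receptor signals, had 1 region (chr1:137973840-137974156) at 72.0, 69.1, 71.1 and 65.6. Mir146, a brake on NF-κB signalling, had 1 (chr11:43376082-43376437) at 38.2 and 34.5 in WT and 69.4 and 54.3 in KO, without overlap. Both KO percentiles were above both WT in 21.1% of all shared regions. The opposite order was seen in 1 of the 2 regions near Mir29a (chr6:31072611-31072927), at 85.8 and 84.6 in WT and 54.2 and 58.1 in KO.

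Peak heights were lower far from genes than near them in every library. The median percentile of far regions was 44.2 (WT 1), 44.9 (WT 2), 46.0 (KO 1) and 45.9 (KO 2), and of narrow shared regions nearer genes 50.8, 50.9, 50.6 and 50.6. The differences were −6.54, −5.98, −4.55 and −4.75 points, the same direction in 4 of 4 libraries, with a mean of −5.45 (exact two-sided sign-flip p = 0.125, the smallest that 4 libraries allow). With regions ranked by fold enrichment the mean difference was −2.05 points. Among far regions 524 (3.85%) were in the top 10% of all 4 libraries, against 7.89% of all shared regions. Far regions were also a smaller share of those called more widely: 24.5% of narrow regions called in 1 library were far, 22.0% in 2, 21.6% in 3 and 17.4% in 4. The median −log10 q of the far regions was 11.2, 23.5, 16.8 and 21.0, and the median fold enrichment 6.92, 10.2, 9.59 and 10.9, in WT 1, WT 2, KO 1 and KO 2.

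Between genotypes, the median percentile of the far regions was higher in each KO library than in each WT library. The mean of the 2 medians was 44.5 ± 0.472 for WT (SD, n = 2) and 46.0 ± 0.120 for KO (SD, n = 2), which is 1.41 points higher (exact two-sided permutation p = 0.333, the smallest that 2 against 2 allows). Of each library's own narrow peaks, 17.7% and 19.1% were far in WT and 19.8% and 18.8% in KO. The difference of 0.921 points was within the spread of the libraries (exact permutation p = 0.667), and it was 0.198 without WT 1, 0.423 without KO 1 and 1.64 without WT 2.

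Both KO percentiles were above both WT percentiles in 3424 far regions (25.2%), against 21.1% of all shared regions and 20.3% of narrow ones nearer genes. The opposite held for 2633 (19.4%), against 20.6% and 20.9%, a share near the background. With a gap of at least 10 points between the means, 2153 (15.8%) were above and 1615 (11.9%) below, against 11.6% in each direction. Beyond 500 kb from genes the medians were 47.5 and 50.2 in WT and 56.7 and 55.3 in KO, and 35.0% of those 451 regions were above and 13.5% below. The 451 include regions of the T cell receptor alpha and delta gap and of the gap from Adam6a to Zfp386. KO was above WT in 29.6% and 32.4% of all far regions in those gaps. The part of the receptor loci in the values beyond 500 kb was not tested. Among far narrow regions called in at least 2 libraries, 1297 of 23148 (5.60%) were called in both KO libraries and no WT library, against 4.34% of all regions, and 666 (2.88%) the reverse, against 2.89%. The background pileup given above separates the genotypes in the same way as these shares, and its part in them cannot be told apart from genotype.

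**Figure D5:**
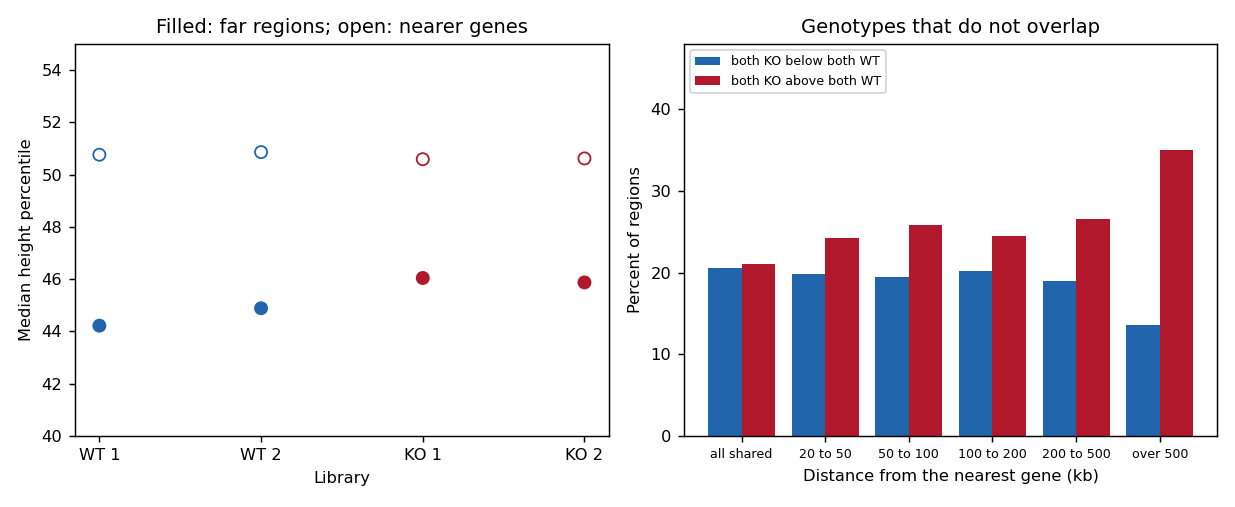
Left, median height percentile (axis from 40 to 55) of far shared regions (filled) and of narrow shared regions nearer genes (open) in each library, WT in blue and KO in red. Right, percent of regions with both KO percentiles below (blue) or above (red) both WT percentiles. Bars are for all shared regions and for far regions by distance from genes in kb. The red bar reaches 35.0% beyond 500 kb, a bin that includes regions of antigen receptor loci.

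The widest single differences ran both ways. In the gap from Dusp10 to Hlx, the region at chr1:184411129-184411460 stood at 85.3 and 76.9 in WT and 1.05 and 13.9 in KO. In the gap from Gm4802 to Ift57, that at chr16:49533417-49533694 stood at 91.2 and 93.4 in WT and 22.6 and 21.4 in KO. Inside the Tox to Car8 gap, 459.4 kb from Tox (chr4:7451005-7451351), the values were 54.6 and 78.2 in WT and 2.14 and 0.275 in KO. WT was far above KO in these 3. After the region beside Maf, the next in the other direction lay between Rpl14 and Ctnnb1 (chr9:120770427-120770764), at 0.885 and 4.09 in WT and 64.6 and 43.5 in KO, followed by one between Tbc1d1 and Gm38457 (chr5:64490720-64490957), at 23.1 and 10.9 in WT and 73.4 and 61.4 in KO. They were chosen for these differences, so the values are a description.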

How the data were processed

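The authors deposited a separate peak list for each library. The submitters' processing notes give the build GRCm38 (mm10) and name MACS2 2.1.1, Bowtie2 2.3.4.1, deepTools 3.1.2, bedtools, Picard, cutadapt and Trim Galore without their roles. Not given in the sources used here: peak settings, read shifting and duplicate handling. The authors' lists give for each peak a score, a fold enrichment (a ratio to local background), and a −log10 p and −log10 q. These are the authors' own values, computed within a library, and were used only to describe and rank peaks. Read totals were not used here.

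Peaks were merged and ranked with Python 3.11.15, pandas 2.3.3 and numpy 2.4.6, after the code was tested on simulated peaks. Gene bodies were 21517 protein-coding rows of a RefSeq table (GRCm38.p6), after 110 rows with patch scaffold positions were left out. The background pileup was the value that explained the most peaks under a Poisson model with fold as (pileup + 1) over (background + 1). Promoter and microRNA sequences come from RefSeq tables of the same build, and positions are 1-based. Sequences of regions away from promoters were not used here. The members, gene lists and tests were chosen with earlier results of these data known. Named deserts were the 15 with the most regions, the 5 densest gaps with at least 5 regions, the 3 longest empty gaps and gaps with at least 3 regions beside a listed gene. Named regions were the one with the highest lowest-library percentile in each desert, the 10 highest overall and the 5 widest genotype differences each way. Other regions were named after their values were seen: those in the gamma and delta receptor loci, at promoters and near microRNAs. Comparisons over libraries used exact permutation or sign-flip tests. Alternatives varied the peak threshold, distance, width, overlap, ranking and libraries. A gene of the B cell marker list is not reported here.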

Additional observations from a re-analysis of the deposited data

Results flagged for a closer look

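Each list also held peaks outside chromosomes 1 to 19 and X, which entered no comparison: 413 in WT 1, 387 in WT 2, 462 in KO 1 and 312 in KO 2. They stand here because they are signal in data that was otherwise left aside.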

How the results depend on the processing

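Among recalculated values for the 7 main results, 0 reversed, and 12 counts moved by over 1.5 times. Sizes moved too: ranked by fold enrichment, the difference of far from nearer regions was −2.05 points in place of −5.45, and the genotype difference in far share was 0.198 without WT 1, 0.423 without KO 1 and 1.64 without WT 2. With a distance of more than 50 kb there were 7602 regions, of which 1446 had both KO percentiles below both WT (19.02%, against 20.6% of all shared regions) and 1970 above (25.9%, against 21.1%). With deserts of at least 1 Mb, 1684 regions lay in deserts. Leaving out 1 library in turn gave 4531 to 5213 regions with KO below WT and 5594 to 6453 above. These counts rise because fewer libraries must be ordered. The shares below were 31.3% to 33.9%, against 33.9% to 36.4% of all shared regions. The shares above were 38.8% to 40.1%, against 35.3% to 36.4% of all shared regions. With libraries of the same replicate number as a replicate block, the difference was 0.921 points in far share (exact sign-flip p = 1) and 1.41 points in median percentile (exact sign-flip p = 0.5, the smallest that 2 pairs allow). Same-numbered libraries did not deviate together (r = 0.0318), so the numbers are not treated as pairs. Of the desert counts, 145 stayed close and 5 moved by over 1.5 times. With a −log10 q of at least 5, Celf2 to Gata3 held 26. With peaks covering 0.5 of the region, Id2 to Rnf144a held 35 and Myc to Gsdmc 32. Leaving out receptor loci, an alternative chosen after seeing the data, takes their own regions from the other 2. With 2 libraries a genotype, no exact test over libraries could reach the usual threshold.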

Other observations

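The tallest far regions were mostly not beside T cell genes. The region with the highest lowest-library percentile lay between Flrt2 and Galc, 1140 kb from a gene (chr12:97061432-97061787). Its −log10 q was 995, 1517, 1847 and 1849 in WT 1, WT 2, KO 1 and KO 2. It was the tallest in every library but WT 1. The next by that measure, between Chrdl1 and Pak3 (chrX:143483005-143483112), reached 1103, 1007, 1020 and 837 and was the tallest in WT 1. Another of the 10 highest overlapped Rn18s-rs5, a copy of ribosomal RNA, between Esp15 and Esp38. Several more of the 10 lay in gaps at chromosome ends. Whether reads of repeated sequence added to the height of these regions was not tested, so their height is not read as openness. Of the 126 far regions in gaps at chromosome ends, 51 lay before Alkbh8 at the start of chromosome 9, with medians of 98.1 and 90.2 in WT and 96.9 and 89.5 in KO. WT 1 and KO 1 were the higher of these. Between Cd28 and Ctla4, which encode opposing receptors of T cells, there were 12 regions with medians of 50.1 and 56.0 in WT and 56.5 and 50.2 in KO.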
